A study of Ovis aries with 48 samples.

Results

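Visceral fat was compared with subcutaneous fat of the same sheep in the control animals of a testosterone (T) cohort, using small RNA sequencing. The 8 libraries, of 48 in the whole series, were chosen by their column labels: 4 from visceral fat and 4 from subcutaneous fat of the female sheep numbered 098, 131, 132 and 201. These animals had received no prenatal testosterone. The labels give neither their age, nor a vehicle for their mothers, nor which visceral site was sampled. They were housed together with the other sheep of the study on a maintenance diet meant to prevent obesity. Values of 2 other sets of sheep are set beside them. Prenatal T sheep of the same cohort (n = 4) were born to mothers injected with 100 mg testosterone propionate in corn oil into the muscle 2 times a week between gestational days 30 and 90. Control sheep of a bisphenol A (BPA) cohort (n = 4) were born to mothers given daily subcutaneous corn oil over those days, where BPA mothers received 0.5 mg per kg per day.

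Subcutaneous fat lies under the skin, and visceral fat surrounds the abdominal organs and is covered by mesothelium, an epithelium-like sheet. Adipocytes of these depots arise from different mesenchymal progenitors, and depots of adult mammals keep distinct programmes of developmental genes, among them the HOX genes that record position along the body. MicroRNAs are short RNAs that pair with messenger RNAs and lower their translation and stability. Many microRNAs that promote or hinder the formation of fat cells are known from human and mouse cells. The same libraries also held fragments of snoRNAs (guides for the chemical modification of other RNAs), snRNAs (parts of the splicing machinery) and long noncoding RNAs (lncRNAs).

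Summed over the 4 RNA classes, depth was 292002 to 875937 reads in the 4 visceral libraries and 788704 to 1004894 in the 4 subcutaneous ones, so that 1 read weighed more in most visceral libraries. MicroRNAs made up 83.9% to 87.5% of the reads in visceral and 84.7% to 88.8% in subcutaneous libraries. Library numbers in the labels fell into an early set (up to 48) and a later set (from 81). Both libraries of sheep 131 and 132 were early, both of sheep 201 were later, and sheep 098 had a later visceral and an early subcutaneous library. Deviations from the depot means correlated between the depots of 1 sheep at r = 0.52 for sheep 131, 0.47 for sheep 132 and 0.64 for sheep 201, but at -0.31 for sheep 098, across 384 features. The later visceral library of sheep 098 correlated at 0.61 with the later subcutaneous library of sheep 201, a different animal. Results are therefore also given without sheep 098, whose difference between depots cannot be told apart from that between sets. Messenger RNAs that define adipocytes were not measured, so the tissue label could be checked by microRNAs alone.

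The share of features that passed the test was highest among microRNAs, the class that also held most of the reads. The classes differed in depth and were adjusted separately, so these shares do not rank the classes by how far the depots differ. Of 384 features with a mean of at least 5, 26 were higher in visceral fat (6.77% of all tested) and 33 were lower (8.59%), at an adjusted p under 0.05. Among 70 microRNAs, 17 were higher (24.3%) and 19 were lower (27.1%). Among 156 snoRNAs, none was higher and 2 were lower (1.28%). Among 30 snRNAs, 4 were higher (13.3%) and 1 was lower (3.33%), and among 128 lncRNAs, 5 were higher (3.91%) and 11 were lower (8.59%). Of the 4 higher snRNAs, 2 had nearly equal values in each library (below), so they may not be separate signals. The test was limma with sheep as a block, on log2(value + 1), where a value is the deposited one after rescaling the 8 libraries by their median ratio to each other. Fold changes below are on that scale, visceral minus subcutaneous with the standard error (SE), and they understate the change of features of low level. The same direction was seen in 4 of 4 sheep for 54 of the 59 called features and for 34.9% of all features tested, a description, since the calls were made on these sheep. The split of calls followed the scaling: 16 were higher and 51 lower with values as deposited, and 55 were higher and 27 lower with equal reads per library within a class. The median fold change of all features, -0.06 as rescaled, was -0.22 and 0.22 on those scales. In bulk tissue, fewer cells of a type and less RNA per cell cannot be told apart.

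**Figure D1:**
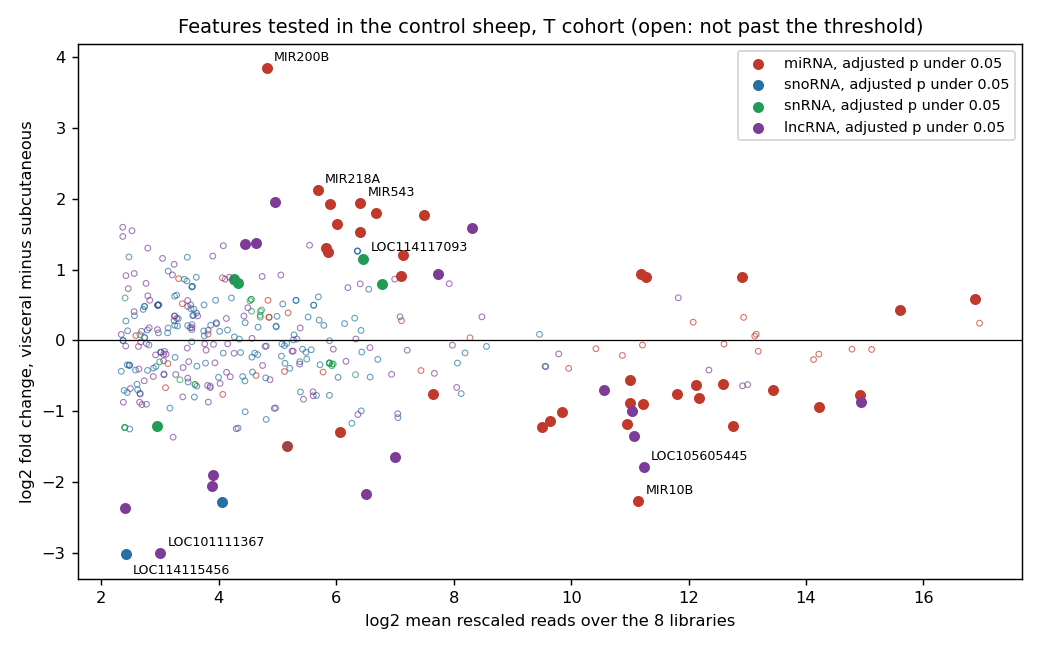
Log2 fold change, visceral minus subcutaneous (vertical axis), against the log2 mean rescaled reads over the 8 libraries (horizontal axis) for the 384 features tested, coloured by RNA class. Filled points passed the threshold (26 higher, 33 lower), and MIR200B (3.85) is the highest of them.

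MIR200B and MIR218A were the microRNAs furthest above subcutaneous fat. MIR200B belongs to the miR-200 family, which marks epithelia and represses the transcription factors ZEB1 and ZEB2. Values are given in the order of sheep 098, 131, 132 and 201 throughout. MIR200B had 25.3, 108.7, 76.8 and 6.25 rescaled reads in visceral fat, against 0, 6.41, 1.14 and 1.41 in subcutaneous fat. Each visceral library exceeded the subcutaneous library of its own sheep, although visceral fat of sheep 201 lay just under subcutaneous fat of sheep 131. The fold change was 3.85 (SE 0.52, adjusted p = 2.59e-06). The subcutaneous values came from 11 recovered reads in all, and the visceral ones from 147. Its neighbour on the chromosome, MIR200A, had 12 reads in visceral and 5 in subcutaneous fat, and its mean lay under the minimum of 5. MIR200C, from another cluster of the family, averaged 11.8 ± 1.96 in visceral and 9.02 ± 5.96 in subcutaneous fat (SD, n = 4 each), with no call (0.52, SE 0.45, adjusted p = 0.348). Of the 7 microRNAs listed as markers of epithelium and mesothelium, those 3 were in the tables. Summed, they came to 21.9 to 126.4 rescaled reads in visceral and 5.12 to 27.5 in subcutaneous libraries, and MIR200A was at 0 in subcutaneous fat of sheep 132 and 201. The part of mesothelial cells in this or any other difference was not tested.

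MIR218A lies in an intron of SLIT3, which encodes a ligand of ROBO receptors. It had 84.1, 70.8, 112 and 64.1 rescaled reads in visceral fat, against 15.1, 11.9, 40.4 and 13.4 in subcutaneous fat. The 2 groups did not overlap, which was so in this direction for 4.43% of all features, and the within-sheep differences ran from 1.45 to 2.48. The fold change was 2.13 (SE 0.35, adjusted p = 2.969e-05). The next microRNA gene along the chromosome, MIR103 in PANK3, was lower in visceral fat (below).

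**Figure D2:**
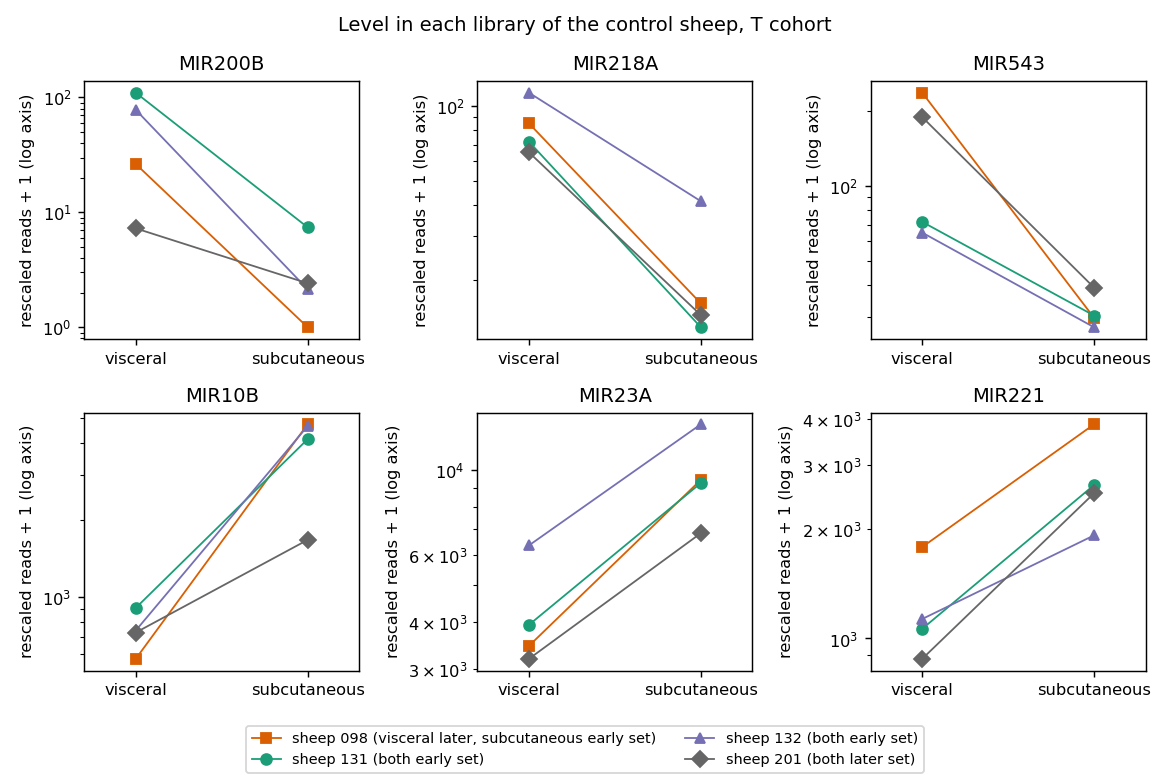
Rescaled reads plus 1 (log axis) of 6 microRNAs in each library, visceral on the left and subcutaneous on the right, with a line joining the libraries of a sheep. Every line of MIR200B, MIR218A and MIR543 falls towards subcutaneous fat, and every line of MIR10B, MIR23A and MIR221 rises towards it.

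Of the 22 tested microRNAs of the DLK1-DIO3 locus, 11 were higher in visceral fat and none was lower. This imprinted locus is expressed from the maternal chromosome as a long noncoding transcript that carries clusters of microRNAs and snoRNAs, and DLK1 beside it restrains the formation of fat cells. Of 52 of its microRNAs listed, 30 had a mean under 5 (5 of them had no read) and were not tested. Among all microRNAs tested, 24.3% were higher. The median fold change of the 22 was 0.90, against -0.06 for all 70 microRNAs, and 19 of the 22 were positive. Values as deposited gave 6 higher and 1 lower, with a median of 0.32. The locus took 0.731%, 0.578%, 1.15% and 1.04% of microRNA reads in visceral fat, against 0.361%, 0.369%, 0.369% and 0.669% in subcutaneous fat. That share was higher in 4 of 4 sheep, and an exact sign-flip test over 4 pairs gave the smallest p that 4 pairs allow, 0.194 once adjusted over 14 shares.

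The locus holds an upstream cluster around RTL1 and a longer one that starts at MIR379. In the upstream cluster all 5 tested microRNAs were higher: MIR493, MIR433, MIR127, MIR432 and MIR370, of which MIR433, MIR127 and MIR432 overlap RTL1, a gene expressed from the other parental copy. From MIR379 to MIR410, 6 of 17 were higher: MIR329B, MIR543, MIR382, MIR485, MIR154B and MIR409. The 11 that were called had mean values from 56.7 to 2326, and the 11 that were not had means from 6.01 to 138, with adjusted p from 0.0845 to 0.905. A difference at the lowest of those levels may not have been detectable at this depth.

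MIR432 had 335, 250, 186 and 327 rescaled reads in visceral fat, against 81.4, 114, 33.6 and 116 in subcutaneous fat. The groups did not overlap, and the fold change was 1.77 (SE 0.29, adjusted p = 3.131e-05). MIR543 had 235, 70.8, 64.0 and 188 in visceral fat, against 28.7, 29.3, 26.2 and 38.2 in subcutaneous fat. Its visceral values fell into a higher pair from the later library set (sheep 098 and 201) and a lower pair from the early set, both above all subcutaneous values, and its fold change was 1.94 (SE 0.34, adjusted p = 7.346e-05). MIR433 had 134, 60.7, 50.2 and 126.6 in visceral fat, against 16.6, 32.9, 8.54 and 45.2 in subcutaneous fat, with the same pairing by set in visceral fat and no overlap (1.92, SE 0.37, adjusted p = 0.000136). MIR127, the most abundant of the locus, had 2521, 2304, 3739 and 3495 in visceral fat, against 1197, 1408, 1257 and 2686 in subcutaneous fat. The groups overlapped through the subcutaneous library of sheep 201, although each sheep was higher in visceral fat (0.93, SE 0.23, adjusted p = 0.00131).

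The 22 tested microRNAs of the locus had a median difference of 1.32 in sheep 098, 0.48 in sheep 131, 1.19 in sheep 132 and 0.86 in sheep 201, and 14, 17, 21 and 20 of them were positive. Without sheep 098, 11 were called higher, among which MIR409 was not (0.66, adjusted p = 0.123), and it was not called without sheep 201 either (0.77, adjusted p = 0.112). Sheep 131 and 132 alone, whose libraries were all early, gave 4 called higher. LOC105606646, the lncRNA that spans much of the locus, was higher too (0.93, SE 0.24, adjusted p = 0.0362). It contains several of these small RNA genes, whose reads cannot be told apart from its own, and it was not called without any 1 sheep (adjusted p from 0.0643 to 0.140).

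**Figure D3:**
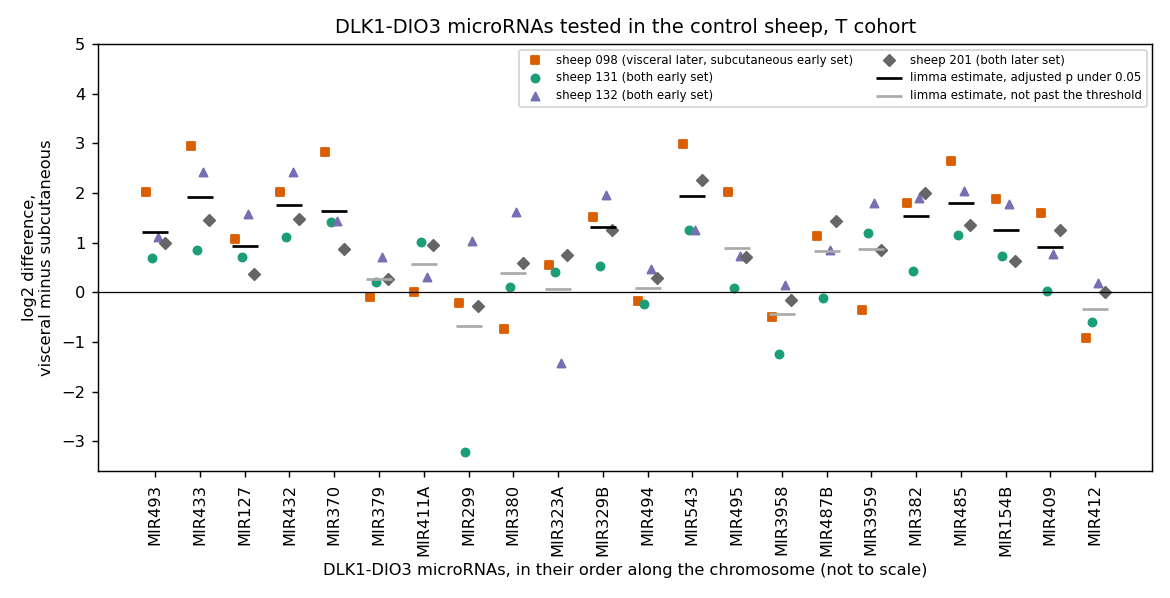
Within-sheep log2 difference, visceral minus subcutaneous (vertical axis), of the 22 tested DLK1-DIO3 microRNAs in their order along the chromosome (horizontal axis, not to scale), 1 point per sheep. Bars are limma estimates, black for the 11 that passed the threshold, and all 5 from MIR493 to MIR370 are black.

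Both microRNAs of the HOX clusters were lower in visceral fat. MIR10B lies at HOXD4 and MIR10A at HOXB3, and the mature forms differ little in sequence. MIR10B had 572, 905, 739 and 725 rescaled reads in visceral fat, against 4729, 4135, 4655 and 1670 in subcutaneous fat. The groups did not overlap, which was so in this direction for 8.33% of all features, and the lowest subcutaneous value, in sheep 201, was still above the highest visceral one. The fold change was -2.27 (SE 0.25, adjusted p = 1.527e-07), with within-sheep differences from -3.04 to -1.20. MIR10A had 809, 1596, 1718 and 1447 in visceral fat, against 2776, 2102, 4653 and 1359 in subcutaneous fat. It was lower in 3 of 4 sheep (-0.88, SE 0.26, adjusted p = 0.00542), and without sheep 098 it was not called (-0.61, adjusted p = 0.133, the highest over its alternatives, which began at 5.67e-05), nor without sheep 132 (-0.69, adjusted p = 0.0575). Together they took 0.208% to 0.545% of microRNA reads in visceral fat and 0.544% to 1.83% in subcutaneous fat, lower in 4 of 4 sheep. With 4 pairs the exact sign-flip test cannot pass the threshold (adjusted p = 0.194).

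All 3 measured members of the miR-23, miR-24 and miR-27 clusters were lower in visceral fat, against 27.1% of all microRNAs tested. MIR23A had 3459, 3927, 6350 and 3198 rescaled reads in visceral fat, against 9438, 9260, 13206 and 6836 in subcutaneous fat. No visceral value reached the lowest subcutaneous one, and the differences of the 4 sheep lay between -1.45 and -1.06 (-1.21, SE 0.20, adjusted p = 2.969e-05). MIR23B, its near copy on another chromosome, was lower by less (-0.62, SE 0.20, adjusted p = 0.00977). The sources used here do not say how reads matching both were counted. MIR27A adjoins MIR23A in the same cluster and represses PPARG, the master regulator of fat cell formation, in human and mouse cells. It had 4444, 1315, 2263 and 2696 in visceral fat, against 3051, 2795, 7583 and 4589 in subcutaneous fat. Sheep 098 alone was higher in visceral fat (0.54). The fold change of -0.76 (SE 0.26, adjusted p = 0.0155) was -1.23 without sheep 098 (adjusted p = 0.0045) and -0.43 without sheep 132 (adjusted p = 0.222, the highest over its alternatives, which began at 0.000102).

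None of the microRNAs listed as promoting the formation of fat cells was higher in visceral fat. Of 10 measured, 6 were lower (MIR103, MIR107, MIR148A, MIR17, MIR21 and MIR30D), where 27.1% of all 70 microRNAs tested were lower. Their median fold change was -0.79 and all 10 were negative, as were 36 of the 70. Of 8 listed as hindering it, 2 were higher (MIRLET7B and MIRLET7C) and 3 were lower (MIR221, MIR27A and MIRLET7I), with a median of -0.17, where 24.3% of all microRNAs tested were higher and 27.1% lower. On the deposited scale the counts were 10 lower of 10, and 6 lower of 8 with none higher, where 37 of the 70 were lower. Without the sheep block, 3 of the 10 were lower, where 9 of the 70 were. In control sheep of the BPA cohort, 3 of the 10 were lower (median -0.37), where 15 of the 70 were. Of the 8, 1 was higher and 3 were lower in that cohort (median -0.30), so the lists differed little there.

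MIR103 and MIR107, in introns of PANK3 and PANK1, are nearly identical in sequence and lower insulin sensitivity in mice. MIR103 had 581, 566, 744 and 503 rescaled reads in visceral fat, against 1190, 1122, 1699 and 915 in subcutaneous fat. The groups did not overlap and the 4 differences lay within -1.19 to -0.86 (-1.02, SE 0.23, adjusted p = 0.000707). MIR107 was lower in 4 of 4 sheep (-0.76, SE 0.27, adjusted p = 0.0174), and without sheep 132 it was not called (-0.73, adjusted p = 0.0577; highest over its alternatives 0.0762).

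MIR148A and MIR152 share a seed and repress the DNA methyltransferase DNMT1. MIR152 had 339, 503, 596 and 297 rescaled reads in visceral fat, against 1067, 886, 1438 and 672 in subcutaneous fat, with no overlap (-1.23, SE 0.24, adjusted p = 0.000179). MIR148A had 901, 1280, 3138 and 933 in visceral fat, against 1688, 1826, 7770 and 1677 in subcutaneous fat. Sheep 132 was the highest in both depots, so that the groups overlapped while each sheep was lower in visceral fat (-0.89, SE 0.22, adjusted p = 0.00131). Without the sheep block, 28 of the 59 features were not called, MIR148A among them (adjusted p = 0.182).

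MIR17, the first microRNA of the cluster miR-17-92 that promotes cell division, had 22.6, 10.1, 20.3 and 18.8 rescaled reads in visceral fat, against 43.7, 36.6, 87.1 and 45.9 in subcutaneous fat. No visceral value reached a subcutaneous one (-1.49, SE 0.36, adjusted p = 0.00131). MIR106B and MIR25, of a related cluster in MCM7, were not called (-0.12, adjusted p = 0.675, and 0.33, adjusted p = 0.192). MIR21, in VMP1, is induced in growth and inflammation. It had 702, 263, 600 and 300 in visceral fat, against 685, 623, 2432 and 766 in subcutaneous fat. Sheep 098, whose libraries came from different sets, showed no difference (0.03), and the other three lay between -2.02 and -1.24. The fold change was -1.14 (SE 0.28, adjusted p = 0.00131), and -1.56 without sheep 098 (adjusted p = 0.00231). Of 4 measured miR-30 microRNAs, which promote adipocyte differentiation in human cells, MIR30D was lower (-0.81, SE 0.20, adjusted p = 0.00131). MIR30B (-0.43), MIR30C (-0.40) and MIR30A (-0.07) did not pass the test, with adjusted p from 0.157 to 0.825.

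MIR221, which represses the cell cycle inhibitor CDKN1B, had 1783, 1062, 1130 and 878 rescaled reads in visceral fat, against 3879, 2640, 1920 and 2507 in subcutaneous fat. Every visceral value lay below every subcutaneous one (-1.18, SE 0.22, adjusted p = 0.000118). LOC105605445, the lncRNA that contains MIR221, was lower as well, with 1333, 821, 1281 and 843 in visceral fat, against 5055, 2535, 4537 and 2956 in subcutaneous fat. Its differences were alike in the 4 sheep, from -1.92 to -1.62 (-1.79, SE 0.19, adjusted p = 0.000651), and reads of a microRNA and its host cannot be told apart here. Among other families, MIR374B (-1.29, SE 0.36, adjusted p = 0.00355), MIR199A (-0.70, SE 0.19, adjusted p = 0.00264), MIR26B (-0.63, SE 0.22, adjusted p = 0.0163) and MIR29A (-0.55, SE 0.22, adjusted p = 0.0348) were lower. MIR374B (-0.97, adjusted p = 0.0636) and MIR26B (-0.54, adjusted p = 0.102) were not called without sheep 098, nor was MIR26B without sheep 131 (-0.53, adjusted p = 0.102). MIR29A was called without sheep 098 but not without sheep 131, 132 or 201 (adjusted p from 0.0728 to 0.133). Their relatives MIR26A (-0.12), MIR29B-1 (0.33) and MIR29B-2 (0.33) did not pass the test. MIR181A-1 (0.06), MIR181A-2 (0.09) and MIR16B (0.26) did not pass it either. MIR29B-1 and MIR29B-2 have equal values in every library.

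**Figure D4:**
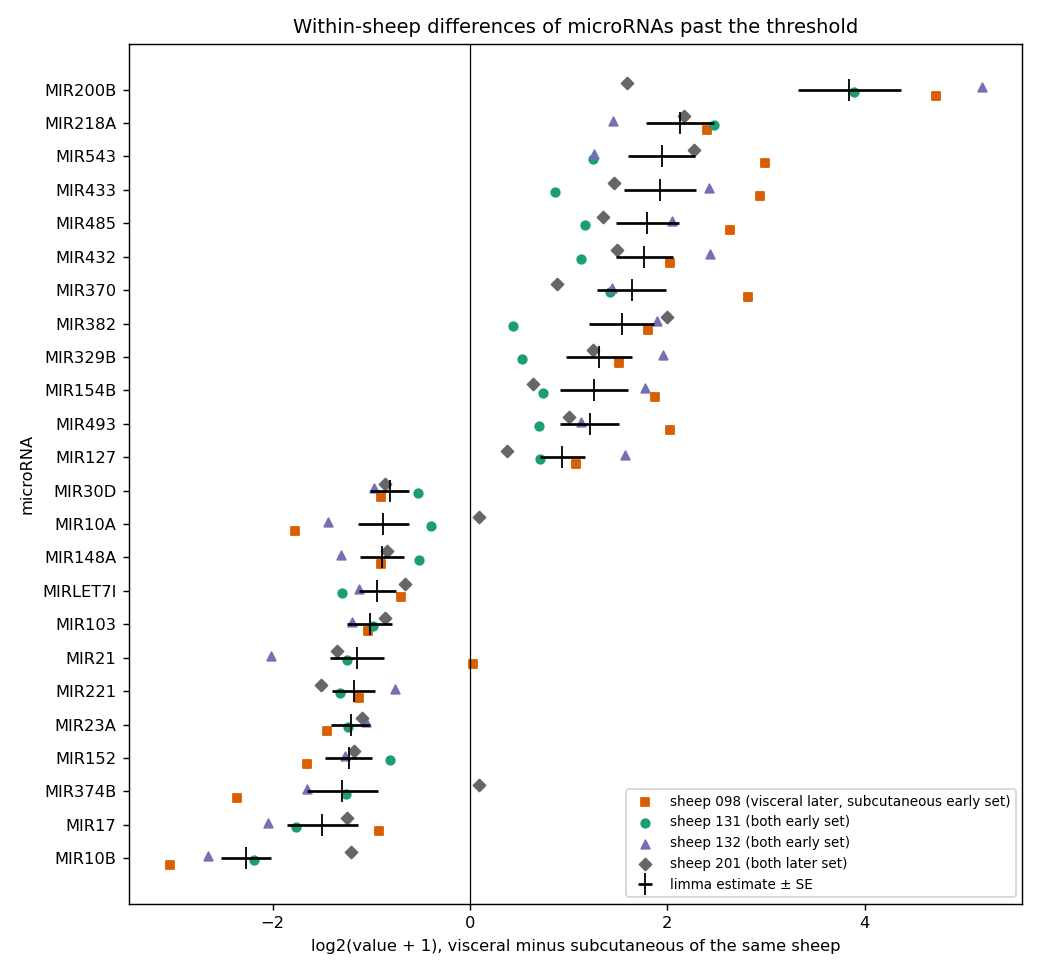
Difference of log2(value + 1), visceral minus subcutaneous of the same sheep (horizontal axis), for the 12 called microRNAs in each direction that were furthest from 0, with 1 symbol per sheep and the limma estimate ± SE in black. All 12 higher ones have 4 points right of 0; among the lower ones MIR21 has sheep 098 (0.03), and MIR10A and MIR374B have sheep 201 (0.09 each), right of 0.

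Let-7 microRNAs, which restrain growth in differentiated cells by repressing HMGA2 and LIN28, did not move as 1 family. MIRLET7B, MIRLET7C and MIRLET7D were higher in visceral fat, MIRLET7I was lower, and the other three of 7 measured members did not pass the test, where 24.3% of all microRNAs tested were higher and 27.1% lower. Let-7 took 71.7%, 69.5%, 55.8% and 69.5% of microRNA reads in visceral fat, against 56.7%, 62.6%, 42.2% and 64.6% in subcutaneous fat. The share was higher in 4 of 4 sheep and lowest in sheep 132 in both depots (mean difference 10.1 percentage points, SD 4.96). With 4 pairs the exact sign-flip test cannot pass the threshold (adjusted p = 0.194).

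MIRLET7B alone took 24.5% ± 6.26 of microRNA reads in visceral and 17.1% ± 5.60 in subcutaneous fat (SD, n = 4 each), and its fold change was 0.59 (SE 0.17, adjusted p = 0.00449). MIRLET7D rose in 4 of 4 sheep (0.89, SE 0.21, adjusted p = 0.00122), by 1.61 in sheep 098 and by 0.50 to 0.90 in the other three. MIRLET7C was higher by 0.43 (SE 0.18, adjusted p = 0.0429), and was not called without any 1 sheep (adjusted p from 0.0519 to 0.150). MIRLET7B was not called without sheep 131 (0.51, adjusted p = 0.0515). On the deposited scale, MIRLET7B was at -0.014 and MIRLET7C at -0.18, none of the 7 was higher and 4 were lower, so the direction of these abundant members depended on the scaling.

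MIRLET7I went the other way. It took 2.02%, 1.76%, 3.47% and 2.04% of microRNA reads in visceral fat, against 4.06%, 4.39%, 6.70% and 3.21% in subcutaneous fat. It was lower in 4 of 4 sheep, with no overlap in rescaled reads (-0.94, SE 0.19, adjusted p = 0.000205). MIR99A, which lies beside MIRLET7C in the same host transcript, was lower too: it took 2.15%, 3.47%, 8.08% and 3.10% in visceral fat, against 6.47%, 5.14%, 13.5% and 3.95% in subcutaneous fat (-0.77, SE 0.19, adjusted p = 0.00131). MIR125B, of the related cluster, did not pass the test (-0.13, SE 0.18, adjusted p = 0.547).

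Markers of blood and muscle cells gave a mixed picture. MIR150, a microRNA of mature lymphocytes that represses MYB, had 4354, 3412, 2092 and 2477 rescaled reads in visceral fat, against 1664, 3291, 648 and 1817 in subcutaneous fat. The difference was near 0 in sheep 131 (0.05) and 1.69 in sheep 132 (0.89, SE 0.25, adjusted p = 0.00344). It was not called without sheep 098 (0.70, adjusted p = 0.0798) or without sheep 132 (0.63, adjusted p = 0.0513), and its adjusted p reached 0.301 over the alternatives. MIR133, of striated muscle, averaged 364 ± 431 in visceral and 256 ± 193 in subcutaneous fat (SD, n = 4 each), with no call (0.04, SE 0.31, adjusted p = 0.905). MIR143, of smooth muscle and of differentiating adipocytes, was not called either (-0.27, SE 0.20, adjusted p = 0.273), nor was MIR194, of intestine (-0.45, SE 0.33, adjusted p = 0.278). MIR150, MIR133, MIR143 and MIR194 were the sole markers of their cell types found in the tables, 1 each of 5, 8, 2 and 3 listed.

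Outside the microRNAs, the largest called group was of lncRNAs. LOC114112617 had 286, 621, 706 and 325 rescaled reads in visceral fat, against 109.3, 123, 206 and 177 in subcutaneous fat, with no overlap (1.58, SE 0.29, adjusted p = 0.00976). LOC114113790 (1.96, SE 0.40, adjusted p = 0.0163) and LOC105604251, which overlaps PAX2 (1.37, SE 0.33, adjusted p = 0.0238), were higher in 4 of 4 sheep. LOC105603102 had 21.7, 29.5, 44.9 and 24.2 in visceral fat, against 137, 91.97, 299 and 82.4 in subcutaneous fat. Its groups did not overlap (-2.16, SE 0.30, adjusted p = 0.0032), and it contains an annotated small noncoding RNA. LOC101111367 and LOC114115026 were lower in 4 of 4 sheep (adjusted p = 0.00976 and 0.0194), with 12 and 5 visceral reads in all against 71 and 45 subcutaneous reads, so the size of their change is poorly known. LOC105603102 kept its call without any 1 sheep. LOC114112617 and LOC114113790 lost it without sheep 131 or 132 (adjusted p from 0.0540 to 0.0564), LOC105604251 without sheep 098, 132 or 201 (0.0780 to 0.118), LOC101111367 without sheep 132 (0.0540) and LOC114115026 without sheep 131 (0.0921). LOC114118399, lower by the test (-0.88, SE 0.21, adjusted p = 0.0242) but neither without sheep 132 (-0.75, adjusted p = 0.116) nor with equal reads per library within the class (-0.23, adjusted p = 0.265, up to 0.399 over its alternatives), took 36.8% to 41.4% of lncRNA reads in visceral and 41.4% to 50.4% in subcutaneous fat. With those equal reads, the median lncRNA moved to 0.50, from -0.11 as rescaled, and 37 lncRNAs were higher and 8 lower.

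Among snRNAs, LOC114117093 had 101.1, 109.4, 116 and 153 rescaled reads in visceral fat, against 42.9, 42.5, 43.7 and 95.3 in subcutaneous fat. The groups did not overlap (1.16, SE 0.23, adjusted p = 5.63e-05). LOC114117060 was higher in 4 of 4 sheep, with overlap between the groups (0.796, SE 0.158, adjusted p = 5.63e-05). Like LOC114117093, it was highest in sheep 201 in either depot. LOC114111395 (0.86, adjusted p = 0.0183) and LOC114111412 (0.81, adjusted p = 0.0375) were higher and LOC114114287 was lower (-1.21, adjusted p = 0.0381). LOC114111395 and LOC114111412 had the same value in visceral fat of sheep 132 (32.1) and close values in every other library. Whether they count the same reads was not tested. snRNAs took 0.302% ± 0.0685 of reads in visceral and 0.169% ± 0.0488 in subcutaneous fat (SD, n = 4 each). That share was higher in 4 of 4 sheep, but the exact sign-flip test cannot pass with 4 pairs (adjusted p = 0.194). The lower snoRNAs were LOC114117376, with 7.89, 1.91, 2.20 and 9.07 in visceral fat against 43.05, 17.1, 36.7 and 14.9 in subcutaneous fat (-2.29, SE 0.44, adjusted p = 0.0327), and LOC114115456, with 5 recovered reads in all of visceral fat against 60 in subcutaneous fat (adjusted p = 0.0375). LOC114117093 lost its call without sheep 132 (adjusted p = 0.143), LOC114117376 without sheep 201 (0.0554), and the other calls of these classes without at least 1 sheep.

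Leaving out each sheep in turn kept 29 of the 59 calls every time. Of the 36 called microRNAs 26 were kept, among them all named DLK1-DIO3 members except MIR409, and of the 16 lncRNAs 3 were kept: LOC105605445, LOC105603102 and LOC114113912. No snRNA (of 5) or snoRNA (of 2) was kept. Counts of calls were 62 without sheep 098, 44 without sheep 131, 35 without sheep 132 and 53 without sheep 201. In the 3 sheep whose libraries shared a set, 56 of the 59 (94.9%) had the direction of the fit, which these sheep helped to set. The same was so for 49.2% of the 376 features tested in both this and the BPA cohort. Over all 17 alternatives, 15 features were called every time. They were MIR200B, MIR218A, MIR433, MIR432 and MIR485, higher in visceral fat, and MIR10B, MIR17, MIR23A, MIR30D, MIR103, MIR152, MIR221, MIRLET7I, LOC105603102 and LOC105605445, lower in visceral fat.

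The control sheep of the BPA cohort, which are other animals in tables normalized separately, gave values that can be set beside these. Their visceral fat had 21 features higher (4.65% of 452) and 31 lower (6.86%). Of the 59 features called in the T cohort, 56 had the same sign (94.9%, against 75% of all 376 tested in both), 35 were called in the same direction and none in the opposite one. In all 4 BPA-cohort controls, which had no part in choosing the 59, 47 features took the direction of the T cohort (79.7%, against 35.1% of the 376). All 11 DLK1-DIO3 microRNAs called in the T cohort were higher in visceral fat of 4 of 4 BPA-cohort controls. Across features the fold changes of the cohorts correlated at r = 0.91 for 70 microRNAs, 0.31 for 156 snoRNAs, 0.65 for 30 snRNAs and 0.70 for 120 lncRNAs, which is a description, since features are not independent replicates.

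In the T and BPA cohorts, the fold changes were 3.85 and 4.07 for MIR200B, 2.13 and 2.13 for MIR218A, 1.77 and 1.72 for MIR432, and -2.27 and -1.70 for MIR10B. MIR21 had -1.14 and -2.29, MIR103 had -1.02 and -0.24, MIR30D had -0.81 and -0.40, and LOC105603102 had -2.16 and -0.73. MIR103, MIR30D and LOC105603102 were not called in the BPA cohort (adjusted p = 0.507, 0.151 and 0.295). The sign was opposite for MIR10A (-0.88 and 0.49), MIR150 (0.89 and -0.50) and LOC105604676 (-0.998 and 0.15). None of those 3 was called in the BPA cohort, and the differences between cohorts were not tested. BPA controls 924 and 928 had a later subcutaneous and an early visceral library, the reverse of sheep 098. In them MIR10A differed by 1.48 and 1.29, against -1.78 in sheep 098, while sheep 131, 132, 201, 902 and 908, with both libraries in 1 set, gave -0.40, -1.44, 0.09, 0.42 and -1.23.

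**Figure D5:**
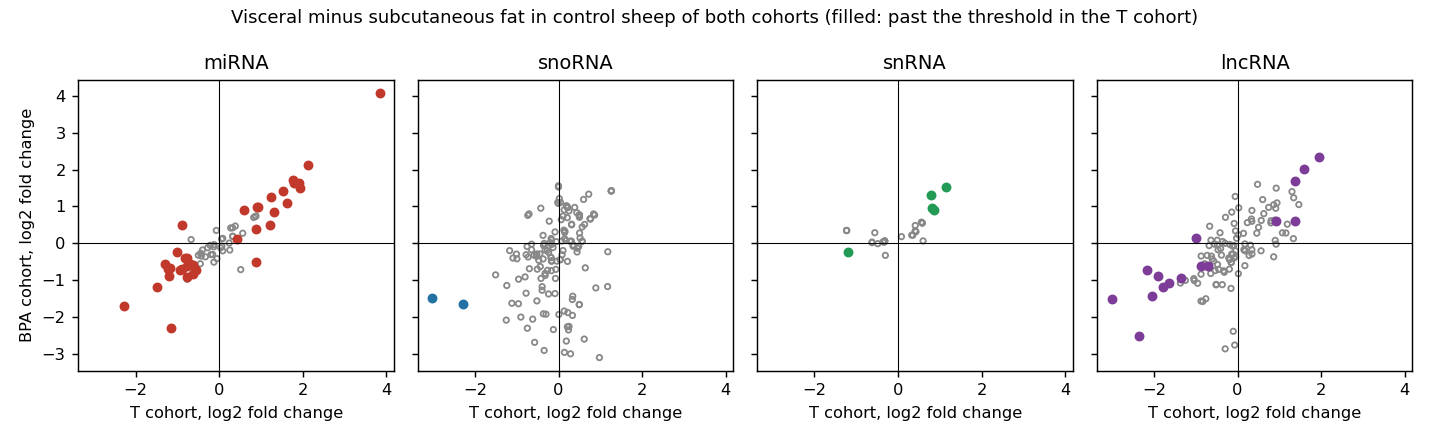
Log2 fold change, visceral minus subcutaneous, in control sheep of the BPA cohort (vertical axis) against those of the T cohort (horizontal axis), 1 panel per RNA class. Filled points passed the threshold in the T cohort, and 56 of these 59 lie in the quadrants of equal sign.

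Prenatal T sheep had 23 features higher and 12 lower in visceral fat (5.58% and 2.91% of 412). The difference between depots was compared with that of the control sheep by the interaction of depot and treatment, over 16 libraries of the same tables. It passed the threshold for 1 of 400 features (0.25%), and in the same limma fit 50 had an unadjusted p under 0.05. That feature, the lncRNA LOC105607806, had within-sheep differences of 1.43, 3.04, 3.10 and 3.29 in prenatal T sheep (sheep 185, 233, 255 and 48), against 0.44, -0.64, 0.18 and 0.18 in control sheep (interaction 2.67, SE 0.51, adjusted p = 0.0273). It was not called without sheep 131, 132, 201, 48 or 233, with adjusted p from 0.0893 to 0.141, or without the sheep block (0.803). No microRNA passed in the fit to all 8 sheep, where MIR21 (1.20) and MIR127 (0.86) had an adjusted p of 0.330. Without sheep 098, MIR21 passed (1.57, SE 0.34, adjusted p = 0.0152), and with a term for the library set MIR125B passed (-1.90, SE 0.45, adjusted p = 0.0458). Over the alternatives, the adjusted p reached 0.991 for both. In prenatal T and control sheep, MIR21 had fold changes of 0.14 and -1.14, MIR127 of 1.89 and 0.93, and MIR10B of -1.82 and -2.27. Of the prenatal T sheep, 3 of 4 had a later visceral and an early subcutaneous library, as sheep 098 did.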

How the data were processed

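The authors deposited 1 table per cohort and RNA class holding a signal per feature, reads divided by a size factor per library. Per the labels' protocols, a NEBNext small RNA kit was used on total RNA. Per the submitters' processing notes, the tools were featureCounts 1.6.1, STAR 2.6.0c and cutadapt 3.2. Build, the use of strand and the handling of reads with several matches are not stated there. Counts are per gene symbol, so the arms of a microRNA hairpin are not kept apart. Dividing each deposited value by the step of 1 read returned whole reads for 100% of values (tolerance 1e-05). The authors' size factors equalled median-of-ratios factors set within each depot and class, so depots were deposited on different scales.

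The 8 libraries of each class were therefore rescaled by their median ratio, features with a mean of at least 5 were kept, and log2(value + 1) was fitted with limma 3.58.1 (R 4.3.3, trend, 1 fit per class) with sheep as a block. Benjamini-Hochberg adjustment was within class. Since these values are not counts, edgeR 4.0.16 and DESeq2 1.42.0 on the recovered reads served as alternatives. The labels number the sheep, so the 2 depots with 1 number come from the same animal. The correlation of their deviations was over 0.1 in 3 of 4 sheep. Pairs of libraries from different sheep that shared a library set gave 0.61, 0.35, 0.25, 0.04 and -0.08 (median over all pairs of different sheep -0.20). The last 2 were the pairs between sheep 131 and 132, whose libraries were all early. Within sheep 131 and 132 the correlation was 0.52 and 0.47, so at a constant set it was higher within these animals than between them. For sheep 098 and 201, animal and library set cannot be told apart by it. Within a depot, the chi-square per degree of freedom between libraries was 17.2 to 506, so no library was counted as a duplicate. Shares of reads were compared by an exact two-sided sign-flip test. The fit was tested on simulated data.

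The comparison, the lists and the rules were chosen with earlier results of these data known, so lists are described by counts and medians. Only the shares of microRNA reads of the DLK1-DIO3, HOX and let-7 lists had a test, the exact sign-flip test. The smallest p that test allows with 4 pairs is 0.125, so no share could have passed the threshold. Named features were up to 12 called microRNAs and up to 3 called features of other classes in each direction, up to 4 members of each list by p, the 5 most abundant microRNAs and the listed markers. MIR409, LOC105605445, LOC105606646, LOC114117060, LOC114118399, LOC114113912, LOC105604676 and LOC105607806 were added after their values were seen. Neighbours and overlaps came from the RefSeq annotation of ARS-UI_Ramb_v3.0, matched by symbol for all 105 microRNAs and for 16 of 23 other called features. Alternatives covered scaling, pseudocount, filter, test, block, library set and leaving out each sheep. The other depots and the treated groups of the BPA cohort were not used here.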

Additional observations from a re-analysis of the deposited data

Results flagged for a closer look

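In a group of 4 libraries, a value was singled out when its gap to the nearest other relative to the group's range exceeded Dixon's critical value. Of 154 groups examined (77 features in 2 depots) 10 were. Chance gives about 1 in 20, so the number singled out was close to the chance rate. Sheep 132 accounted for 6 of them. In its subcutaneous library MIR148A reached 7770 rescaled reads (other three 1677 to 1826), MIR21 reached 2432 (623 to 766), MIR194 reached 99.0 (50.3 to 55.8) and LOC105604676 reached 4143 (2155 to 2327). LOC114113912 was high in sheep 132 in both depots, at 17.97 in visceral fat (other three 1.05 to 1.73) and 67.4 in subcutaneous fat (7.84 to 10.9), so that its difference of -1.85 in that sheep was like those of the others.

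Sheep 201 accounted for 3, all in its later subcutaneous library, where the other three were early. MIR10B was low at 1670 (other three 4135 to 4729), while LOC114117093 was high at 95.3 (42.5 to 43.7) and LOC105606646 at 229 (114 to 126.2). In each of these features the difference between depots was the smallest in sheep 201, and the part of the library set was not tested. LOC114115456 had 1.97 in visceral fat of sheep 098 and 0 in the other three.

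The lncRNA LOC105607806 differed in its depot difference between prenatal T and control sheep (interaction 2.67, adjusted p = 0.0273 by limma). Its differences were 1.43 to 3.29 in prenatal T sheep and -0.64 to 0.44 in control sheep.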

How the results depend on the processing

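Of 59 calls, 53 to 59 were shared with TMM scaling, edgeR, DESeq2 and pseudocounts of 0.5 and 5. On the recovered reads edgeR called 61 features and DESeq2 56. With no filter 66 of 2720 were called, and with a mean of at least 20, 57 of 200, each sharing 50 of the 59. Without the replicate block 31 features were called (16 higher, 15 lower), all among the 59. With values as deposited 16 were higher and 51 lower, and 47 of the 59 calls were kept. Of the calls not kept, 10 had the same sign, and 2 (MIRLET7B and MIRLET7C) turned sign without being called in the other direction. With equal reads within a class (CPM) 55 were higher, and with equal summed reads 58. In the early set alone 15 were higher. Leaving out 1 sheep gave 35 (without 132) to 62 (without 098) calls, 16 to 25 higher and 19 to 37 lower. DLK1-DIO3 microRNAs called higher were 6 as deposited and 4 in the early set alone, in place of 11. Of the named features, 11 turned sign as deposited. Of these, 5 were called on either scale: MIRLET7C (-0.18), MIRLET7B (-0.014), MIR181A-2 (-0.52), MIR181A-1 (-0.54) and MIRLET7A (-0.36). The other 6, MIR16B (-0.35), MIR25 (-0.28), MIR29B-1 and MIR29B-2 (-0.26 each), MIR133 (-0.56) and MIR200C (-0.022), were called on neither. These shifts follow from the scale itself, which moved the median microRNA to -0.66, against -0.06 as rescaled.

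In the BPA cohort, 52 calls became 117 as deposited, 25 with a library set term, and 25 to 79 when 1 sheep was left out. The interaction, with 1 call, gave 0 without the replicate block, 10 with a library set term, and 0 to 4 when 1 sheep was left out. The cause of the changes other than by scaling was not tested. Within sheep, the set term in the fit to the T-cohort controls rests on sheep 098 alone. In the interaction fit it also rests on those prenatal T sheep with a later visceral and an early subcutaneous library. Depth limits features near the filter, most of all in the visceral library of sheep 131 (292002 reads).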
